A study of Mus musculus with 1646 samples.

Results

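Collagen VI and 3 collagens that decorate fibrils, XII, XIV and XVI, were followed across the mesenchymal cells of the mouse colon. The genes were *Col6a1*, *Col6a2*, *Col6a3*, *Col6a4*, *Col6a5*, *Col6a6*, *Col12a1*, *Col14a1* and *Col16a1*, chosen by name, and they make up 9 of the 46517 gene rows of the count table. Collagen VI is a beaded microfibril that surrounds cells and links them to the fibrillar matrix. Its unit is built from the chain of *Col6a1*, the chain of *Col6a2* and the third chain, for which *Col6a3* is the long-known gene and *Col6a4*, *Col6a5* and *Col6a6* are later-found relatives. Collagens XII, XIV and XVI are FACITs (fibril-associated collagens with interrupted triple helices), which bind along collagen fibrils and shape how fibrils are spaced and bound to other matrix.

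Single cells were sorted as CD31-negative events, which leaves out endothelial cells, from the colon of male mice 10 to 20 weeks old on a C57Bl6/J background. Each of the 1646 cells is a SmartSeq2 library, in which the poly(A) RNA of a cell is copied to full-length cDNA, and no molecular identifiers were used. Intervals on shares treat the cells as independent, so they cover counting error only and leave out the spread between plates and mice. The mice carried a fluorescent protein under the promoter of *Acta2* (Acta2GFP, 567 cells on 2 plates), *Pdgfra* (PdgfraGFP, 227 cells on 2 plates), *Pdgfrb* (PdgfrbGFP, 761 cells on 4 plates) or *Cspg4* (Cspg4dsRED, 91 cells on 1 plate). A line therefore holds only the cells that its reporter gate let through, combined strains are mentioned in the methods, and elastase was added to the digestion only for Acta2GFP colons. No mouse is named for a cell, so p-values measure the spread between lines or plates, which may be partly technical. The labels place each cell in 1 of 8 clusters, and the study arranged the 5 fibroblast clusters from the base to the apex of the mucosa. The fibroblasts (1307 cells) comprise base (cluster 7, 223 cells), base-to-middle (cluster 5, 425), middle (cluster 1, 483), middle-to-apex (cluster 6, 45) and apex (cluster 2, 131) cells. The mural cells (339) comprise pericytes (cluster 4, 142 cells), SMC (smooth muscle cells) of vessels (vascular SMC; cluster 3, 141) and SMC of the interstitium (interstitial SMC; cluster 8, 56).

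Counts on genes ran from 47598 to 1494292 per cell, with a median of 248628. A level below is the mean over the cells of a line of counts per 500000, for lines with at least 10 cells of the cluster, and is followed by its SD over lines. PdgfraGFP had too few mural cells to give a value, and the level of interstitial SMC comes from Acta2GFP alone. The cell labels held against their markers: 5 fibroblast markers (*Pdgfra*, *Lum*, *Fbln1*, *Fbln2* and *Cd34*) summed to 2794 to 5107 in the lines' fibroblasts and 60.0 to 333 in their mural cells. The 5 mural markers (*Rgs5*, *Notch3*, *Des*, *Mcam* and *Tagln*) summed to 57.9 to 99.9 and 2732 to 5369. Immune markers stayed at or under 5.84, and 3 mesothelial markers summed to at most 0.00788 in any line of any cluster, with *Msln* and *Upk3b* at 0.

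On GRCm38 the collagen VI chains lie in 3 places. *Col6a1* (chr10:76708792-76726168) and *Col6a2* (chr10:76595762-76623630) are neighbours on the minus strand, *Col6a3* stands alone on chr1:90765923-90843971, and *Col6a6* (chr9:105687809-105828160), *Col6a5* (chr9:105856078-105960643) and *Col6a4* (chr9:105989454-106096783) follow each other, all on the minus strand. *Col12a1* lies at chr9:79598991-79718831 on the minus strand, and *Col14a1* (chr15:55307750-55520803) and *Col16a1* (chr4:130047840-130099283) lie on the plus strand. Since *Col6a1* and *Col6a2* moved together over the sums of clusters and lines while *Col6a3* did not follow them among fibroblasts (values below), their promoter sequences are shown side by side. They are from RefSeq on GRCm38.p6, 5′ to 3′ on the gene's strand, and cover the part of the 250 bases before the RefSeq start that lies outside annotated exons. Capitals mark a match to 1 of 4 motifs searched on both strands: TATAAA (the TATA box), CCAAT (the CCAAT box, bound by NF-Y), GGGCGG (the GC box, which reads CCGCCC on the other strand) and TGANTCA (the AP-1 site).
Col6a1 (chr10:76726169-76726294): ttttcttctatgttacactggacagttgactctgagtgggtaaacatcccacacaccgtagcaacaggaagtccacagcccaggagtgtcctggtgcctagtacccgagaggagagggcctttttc
Col6a2 (chr10:76623631-76623880): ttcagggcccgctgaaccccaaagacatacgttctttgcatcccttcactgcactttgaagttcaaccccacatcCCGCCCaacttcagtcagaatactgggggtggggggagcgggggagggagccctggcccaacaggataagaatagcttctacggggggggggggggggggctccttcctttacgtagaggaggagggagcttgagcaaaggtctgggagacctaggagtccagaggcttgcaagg
Col6a3 (chr1:90843972-90844221): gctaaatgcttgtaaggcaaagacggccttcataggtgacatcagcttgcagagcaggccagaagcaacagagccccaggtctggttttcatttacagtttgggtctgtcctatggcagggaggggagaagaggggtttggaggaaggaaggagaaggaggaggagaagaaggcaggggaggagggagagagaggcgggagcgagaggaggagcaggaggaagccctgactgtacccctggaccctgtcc
The *Col6a2* stretch holds 1 GC box, 175 bases before the start, and the stretches of *Col6a1* and *Col6a3* hold no match to the letters searched. Nearer to its start, inside annotated exon and so not shown, the *Col6a1* window holds TGACTCA at 90 bases before the start. Another RefSeq start of *Col6a2*, at chr10:76623404, has 3 GC boxes 67, 15 and 11 bases before it, which also lie inside annotated exon and are not shown. Of all 32851 RefSeq windows, 32.7% hold GGGCGG, 6.75% TGANTCA, 33.8% CCAAT and 12.4% TATAAA. The tables hold no entry for *Col12a1* or *Col14a1*.

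The 2 obligate chains were made by every fibroblast cluster, most by the apex. *Col6a1* was read in 1306 and *Col6a2* in 1307 of 1307 fibroblasts. The *Col6a1* level by line in base cells was 901 in Acta2GFP, 1017 in PdgfraGFP and 1003 in PdgfrbGFP (974 ± 63.6, SD, n = 3). In base-to-middle cells it ran from 1022 in Acta2GFP to 1124 in PdgfrbGFP (1072 ± 42.3, n = 4). Middle cells, at 1240 ± 180 (n = 3), and middle-to-apex cells, at 1268 ± 75.6 (n = 2), overlapped each other. Apex cells stood apart, with 3551 in Acta2GFP, 2408 in PdgfraGFP and 2825 in PdgfrbGFP (2928 ± 578, n = 3), all above the highest line of every other cluster. *Col6a2* ran in the same order, from 1076 ± 141 in base cells and 1289 ± 283 in base-to-middle cells to 1465 ± 63.9 in middle cells, 1551 ± 265 in middle-to-apex cells and 3061 ± 598 in apex cells. Plates of a line differed here: the 2 PdgfraGFP plates had apex *Col6a2* levels of 1392 (25 cells) and 4003 (30 cells), the lower of which lay below 4 of the 8 middle plates (999 to 1840 in all). On that same plate, middle cells were at 999 and middle-to-apex cells at 1170. Apex plates for *Col6a1* ran from 1692 to 3652, above all middle plates (908 to 1509). Over the 21 sums of a cluster and line, the 2 chains correlated with r = 0.994, and over the 15 fibroblast sums with r = 0.972, as a description over sums that share lines and depth.

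Against the mean of clusters 1, 5 and 7, apex cells held more of both chains. The fold was 1.47 ± 0.247 (log2 ± SE) for *Col6a1* (adjusted p = 0.000657, edgeR's quasi-likelihood test) and 1.36 ± 0.227 for *Col6a2* (adjusted p = 0.000633). Of all 21739 genes tested, 4.42% were higher and 1.86% lower in apex cells, and 5 of the 9 collagens were higher and 1 lower (*Col6a5*, among the higher, stood below its level in middle cells). Because these same counts were what the authors clustered, a difference between clusters is no independent finding. Without the Acta2GFP line, whose apex level was the highest, neither chain passed (1.20 ± 0.344 and 1.04 ± 0.299, adjusted p = 0.105 for both), and of the 6 collagens only *Col6a4* was still called, while the calls over all genes went from 961 higher and 404 lower to 346 and 77. Depth moved with the level in apex cells: those of under 250000 counts had a mean *Col6a1* level of 3456 (61 cells) and deeper ones 2386 (70 cells), against 1372 and 1212 in middle, 1091 and 1076 in base-to-middle and 927 and 956 in base cells. These means pool cells over lines and plates. Median counts over all cells of a line were 170222 in Acta2GFP, 296654 in PdgfrbGFP and 322654 in PdgfraGFP. The part of line or plate in this difference by depth was not tested. Among the 15372 genes with at least 100 counts in some cell, the highest count in a cell was 1.96 per exonic base, and that of *Col6a1* was 0.943. Whether reads at the same position were collapsed before counting is not clear from the sources used here. If they were, levels of abundant genes in deep cells, and so folds of *Col6a1* and *Col6a2*, would be understated. Within each of these depth classes the call held, at 1.69 ± 0.316 in the shallower and 1.18 ± 0.263 in the deeper cells (adjusted p = 0.00195 and 0.0222). The 12 early-response genes known to rise during tissue dissociation, such as *Fos* and *Egr1*, summed to 10847 to 17287 in apex cells and to 1620 to 6734 in clusters 1, 5 and 7. Other lists separated these groups too: fibroblast markers summed to 1069 to 2138 in apex cells and 3331 to 6146 in clusters 1, 5 and 7, the 5 mural markers to 1.06 to 35.4 and 46.1 to 126, 2 interstitial SMC markers (*Hhip* and *Rgs10*) to 254 to 356 and 28.6 to 134, and 2 markers of interstitial cells of Cajal (*Kit* and *Ano1*) to 98.1 to 220 and 0.037 to 43.9. Of these last, *Kit* was at 0.348 in apex cells and *Ano1* at 163. The part of these lists in the difference was not tested.

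Among mural cells, the chains fell into 3 steps. Interstitial SMC of the Acta2GFP line had levels of 891 for *Col6a1* and 922 for *Col6a2*, each below every line of base cells. Pericytes had *Col6a1* levels of 476 in PdgfrbGFP and 659 in Cspg4dsRED (568 ± 129, n = 2). Vascular SMC had 80.8 in Acta2GFP, 32.4 in PdgfrbGFP and 105 in Cspg4dsRED (72.8 ± 37.1, n = 3), with no overlap with pericytes. The vascular SMC mean also rested on few cells: 25 of 141 (17.7%, 95% Clopper-Pearson interval 11.8 to 25.1%) reached a level of 50, while the median cell was at 4.77. All 56 interstitial SMC and 102 of 142 pericytes (71.8%) reached 50. *Col6a1* was higher in pericytes than in vascular SMC by 2.70 ± 0.371 (adjusted p = 0.000753), *Col6a2* by 2.34 ± 0.337 (adjusted p = 0.000873) and *Col6a3* by 2.28 ± 0.291 (adjusted p = 0.000406), the last of which was lost with only cells of under 250000 counts (1.71 ± 0.435, adjusted p = 0.0873). These were the 3 collagens called, against 0.621% of all genes higher and 0.198% lower. The *Col6a2* levels were 427 and 455 in pericytes, and 99.9, 45.2 and 87.3 in vascular SMC. Other lists moved with this contrast. Endothelial markers (4 genes) summed to 22.1 and 80.0 in pericytes and to 6.13 to 9.13 in vascular SMC, and fibroblast markers, which overlapped, to 93.8 and 546, and 22.8 to 284. The mural markers summed to 4720 and 6224 in pericytes and to 4005 to 4428 in vascular SMC. For *Rgs5*, *Abcc9* and *Kcnj8*, markers of pericytes, the sums were 4002 and 4427, and 734 to 1148. For *Myh11*, *Acta2* and *Cnn1*, markers of SMC, they were 1103 and 1635, and 4101 to 6687. The dissociation genes summed to 2109 and 2266 in pericytes and to 7178 to 12792 in vascular SMC. Among vascular SMC a cell's *Col6a1* level followed that of cells in the same row or column of its plate, with a mean rho of 0.238 (−0.0513 to 0.533 over 5 plates, 133 cells). The part of any of these in the difference was not tested.

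Fibroblasts as a whole held more of the 3 classical chains than mural cells. *Col6a1* levels by line were 1102 to 1408 in fibroblasts and 288 to 600 in mural cells, *Col6a2* 1317 to 1795 and 276 to 642, and *Col6a3* 503 to 547 and 147 to 178, with no overlap for any of them. Mural cells of the lines were different mixtures. Acta2GFP gave 52 interstitial SMC, 29 vascular SMC and 3 pericytes, PdgfrbGFP 4, 82 and 104, and Cspg4dsRED 30 vascular SMC and 33 pericytes. The part of these mixtures in the spread between lines was not tested. The folds were 1.74 ± 0.288, 1.91 ± 0.300 and 1.93 ± 0.249 (adjusted p = 0.00725, 0.00566 and 0.00242). Of 19173 genes tested, 3.21% were higher and 3.36% lower in fibroblasts. *Col6a1*, *Col6a2*, *Col6a3* and *Col14a1* were the 4 called. *Col6a1* was not called without PdgfrbGFP (adjusted p = 0.0517). The *Kit* and *Ano1* sum was 115 to 407 in mural cells and at most 37.7 in fibroblasts, and its part was not tested.

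**Figure D1:**
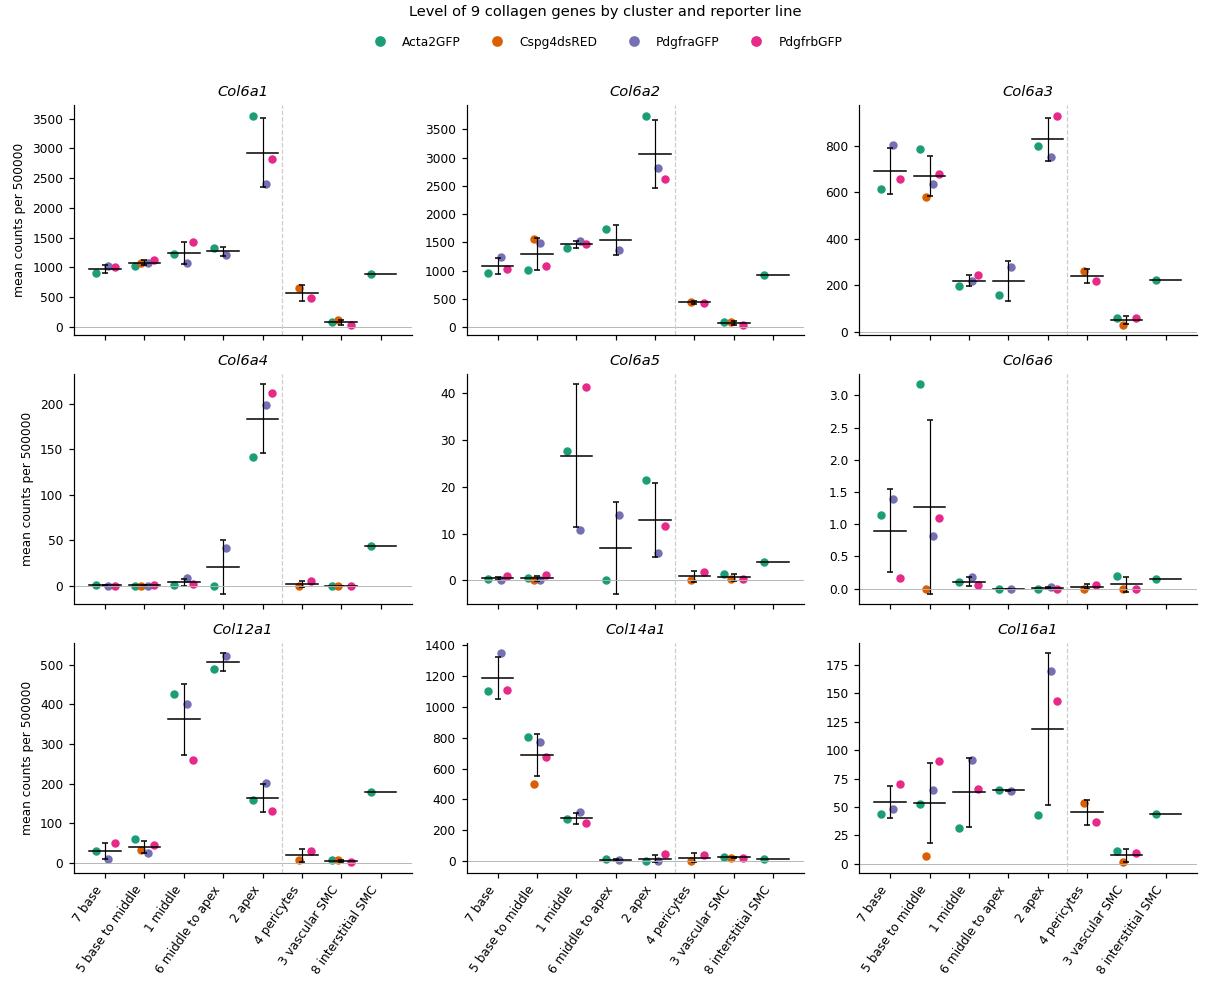
Levels of the 9 collagens (mean counts per 500000, linear axis from 0, a scale of its own in each panel) by cluster. Each point is a reporter line with at least 10 cells, the line is the mean and the bar the SD over lines. *Col6a1* and *Col6a2* peak in apex cells (2928 and 3061), *Col14a1* in base cells (1187) and *Col12a1* in middle-to-apex cells (506).

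The third chain did not keep pace with its partners. *Col6a3* levels in base cells were 613, 802 and 655 in Acta2GFP, PdgfraGFP and PdgfrbGFP (690 ± 99.5), and in base-to-middle cells 581 to 784 over 4 lines (669 ± 86.4). They dropped to 197, 218 and 243 in middle cells (219 ± 23.3) and 157 and 280 in middle-to-apex cells (219 ± 86.7), and stood at 798, 753 and 929 in apex cells (826 ± 91.3). Base, base-to-middle and apex cells overlapped, and all of their lines were above all lines of middle and middle-to-apex cells. Middle cells held less *Col6a3* than base cells (fold −1.81 ± 0.269, adjusted p = 0.00228). Of 21739 genes, 0.368% were higher and 0.120% lower in middle than in base cells, and the collagens called were *Col6a3* and *Col12a1*. *Col6a1* and *Col6a2* differed by 0.26 and 0.31 there and did not pass. The *Col6a3* call was lost on leaving out Acta2GFP, PdgfraGFP or PdgfrbGFP, with folds of −1.87, −1.58 and −1.97 (adjusted p = 0.0506, 0.0518 and 0.0758), and with only cells of under 250000 counts (−1.47, adjusted p = 0.299). The dissociation genes summed to 3367 to 4556 in base and 1620 to 3917 in middle cells, which overlapped. Lists that did not overlap were 3 pericyte markers (*Rgs5*, *Abcc9* and *Kcnj8*), at 1.38 to 14.7 in base and 68.0 to 119 in middle cells, 3 apex fibroblast markers (*Il1rl1*, *Ptgs2* and *Tnc*), at 26.1 to 61.4 and 551 to 575, and the interstitial SMC markers, at 28.6 to 43.9 and 61.5 to 83.3. The part of these lists was not tested.

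Apex cells held more *Col6a3* than middle-to-apex cells, by 2.20 ± 0.318 (adjusted p = 0.00106), the 1 collagen called when 0.695% of genes were higher and 0.262% lower. That call was lost without Acta2GFP, which has 10 middle-to-apex cells (1.68 ± 0.408, adjusted p = 0.237), with sums of at least 3 cells (1.69 ± 0.421, adjusted p = 0.0573) and with only cells of under 250000 counts (1.46 ± 0.632, adjusted p = 0.304). The dissociation genes summed to 846 to 1874 in middle-to-apex cells, below the apex range given above, and 3 SMC markers (*Myh11*, *Acta2* and *Cnn1*) to 489 to 1436 there and 101 to 312 in apex cells. The mural markers, at 103 to 351 in middle-to-apex and 1.06 to 35.4 in apex cells, the interstitial SMC markers, at 105 to 137 and 254 to 356, and the apex fibroblast markers, at 380 to 559 and 3175 to 3537, also separated them. The pericyte markers, at 203 to 212 in middle-to-apex and 15.1 to 38.4 in apex cells, and the *Kit* and *Ano1* sum, at 0.712 to 54.0 and 98.1 to 220, did not overlap either. The part of these lists in the difference was not tested. Against clusters 1, 5 and 7 together, *Col6a3* was higher in the apex by 0.95 ± 0.200 (adjusted p = 0.00499), and it too was lost without Acta2GFP (0.90 ± 0.235, adjusted p = 0.0713) or PdgfrbGFP (0.91 ± 0.284, adjusted p = 0.107), with sums of at least 3 cells (0.94 ± 0.305, adjusted p = 0.0681) and with only cells of under 250000 counts (0.86 ± 0.358, adjusted p = 0.238). *Col6a3* correlated with *Col6a1* with r = 0.802 over the 21 sums and r = 0.216 over the 15 fibroblast sums. Mural cells had *Col6a3* levels of 218 and 260 in pericytes, 221 in interstitial SMC and 30.4 to 59.9 in vascular SMC.

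Per kilobase of merged exon, which allows chains to be compared, *Col6a3* to *Col6a6* together came to 0.260 ± 0.0262 of the *Col6a1* level in base cells and 0.230 ± 0.0368 in base-to-middle cells. The ratio was 0.0767 ± 0.00703 in middle cells, 0.0756 ± 0.0452 in middle-to-apex cells and 0.141 ± 0.0312 in apex cells. Lines of base and base-to-middle cells ran from 0.198 to 0.290, above all lines of the other 3 fibroblast clusters, which ran from 0.0437 to 0.161. *Col6a3* made up 99.7% ± 0.109 of the third-chain level per kilobase in base cells and 99.6% ± 0.310 in base-to-middle cells. It made up 85.0% ± 4.15 in middle cells and 75.1% ± 2.78 in apex cells, where other genes of the family entered. *Col6a2* was at 0.581 ± 0.0520 of *Col6a1* in base cells, 0.632 ± 0.110 in middle cells and 0.553 ± 0.0632 in apex cells on the same scale. Per kilobase of the longest transcript these ratios were 0.921, 1.00 and 0.877, so the balance of the 2 chains depends on the length used, while the third-chain ratios were 0.288, 0.0834 and 0.156.

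*Col6a4* had its highest level in the apex. It stood at 141 in Acta2GFP, 199 in PdgfraGFP and 212 in PdgfrbGFP apex cells (184 ± 37.6, n = 3), and at or under 8.43 in every line of base, base-to-middle and middle cells, without overlap. It was read in 111 of 131 apex cells (84.7%, interval 77.4 to 90.4%), in 73.3% once cells were thinned to 50000 counts, and 80 cells reached a level of 50. The fold over clusters 1, 5 and 7 was 7.76 ± 0.905 (adjusted p = 1.16e-05), the call that no omitted line ended. In clusters 1, 5 and 7 the *Col6a4* level of a cell followed that of cells in the same row or column of its plate, with a mean rho of 0.248 (−0.225 to 0.549 over 9 plates, 1131 cells). Per kilobase *Col6a4* gave 23.4% ± 3.78 of the third-chain level in apex cells, and *Col6a3* exceeded it in each line. Of the 131 apex cells, 77 reached 50 for both, 50 for *Col6a3* alone and 3 for *Col6a4* alone.

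Middle-to-apex cells did not share this level as a group: the Acta2GFP line had 0.151, and the 42.2 of PdgfraGFP rested on 1 cell at 1056. Apex and middle-to-apex cells did not pass the test for *Col6a4* (5.53 ± 1.63, adjusted p = 0.113), but did by DESeq2 (5.53, adjusted p = 0.00132), by limma (4.69, adjusted p = 0.0232) and by edgeR without Cspg4dsRED (5.54, adjusted p = 0.0466). Interstitial SMC had the next-highest level, 44.0, with 13 of 56 cells at 50 or more, and *Col6a4* made up 21.4% of the third-chain level there. The vascular SMC sums held 4, 0 and 6 *Col6a4* counts, and the fitted fold of interstitial over vascular SMC, 9.16 ± 1.75 (adjusted p = 0.00863), depends on the prior count there and on 1 interstitial sum. It was lost without PdgfrbGFP (8.69 ± 1.99, adjusted p = 0.0851). In fibroblasts against mural cells *Col6a4* differed by 0.84 ± 1.33 and was not called.

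*Col6a4* shares 1.58% of its 50-base stretches with the antisense transcripts *Gm47575* and *Gm36993*, and counting is not stated to use strand. Over all cells *Gm36993* held 362 counts against 18153 for *Col6a4*.

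**Figure D2:**
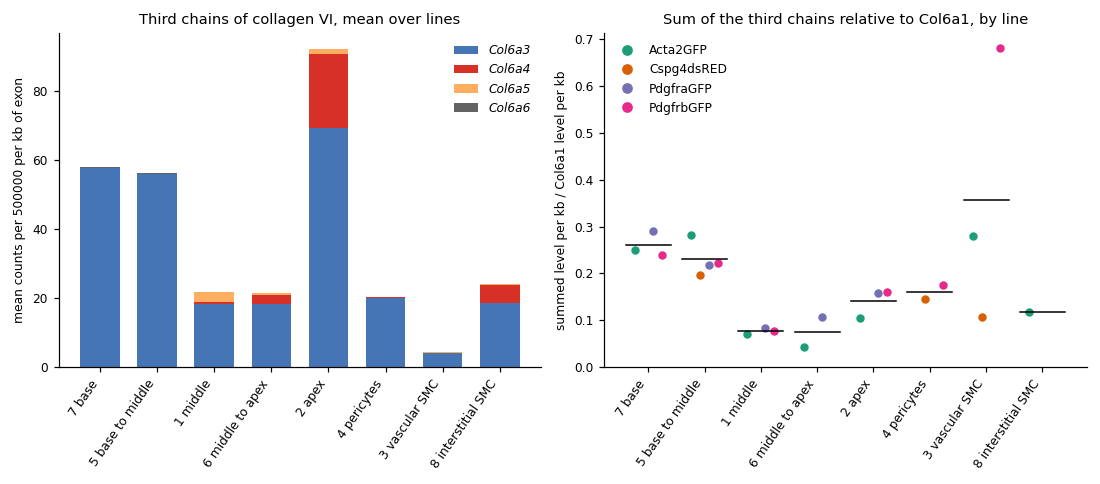
The third chains of collagen VI by cluster, per kilobase of merged exon. The left panel stacks the mean levels over lines, and the right panel gives their sum relative to *Col6a1*, a point for each line and a bar at the mean. The ratio is 0.260 in base cells, 0.0767 in middle cells and 0.141 in apex cells, where *Col6a4* joins *Col6a3*.

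*Col6a5* reached a level of 50 in few cells, and 50 of these were middle cells. Its level in middle cells was 27.8 in Acta2GFP, 10.8 in PdgfraGFP and 41.3 in PdgfrbGFP (26.6 ± 15.3), and in apex cells 21.4, 5.77 and 11.7 (12.9 ± 7.90), which overlapped. In each of the 3 lines the apex level was below the middle level. Within plates this order did not always hold. Apex and middle levels were 19.2 and 14.8 on an Acta2GFP plate, and 10.9 and 8.81 on a PdgfraGFP plate. They were 1.53 and 11.9 on the other PdgfraGFP plate, and 17.2 and 42.5, and 10.5 and 33.1, on PdgfrbGFP plates. Base and base-to-middle lines were at or under 1.07 for *Col6a5*. Of 483 middle cells, 139 (28.8%) had a count and 50 (10.4%) reached a level of 50, and the highest cell stood at 1654. The tenth of middle cells with most *Col6a5* (49 cells) held 96.0% of the summed level. In all fibroblasts 54 cells reached 50 for *Col6a5* alone, 83 for *Col6a4* alone and 5 for both. Apex cells were called higher than the mean of clusters 1, 5 and 7, taken on the log scale, in which clusters 5 and 7 stand near 0 (3.98 ± 1.08, adjusted p = 0.0290). The call says nothing of an excess over middle cells, and was not made without Acta2GFP (3.68 ± 1.29, adjusted p = 0.209), PdgfraGFP (3.95 ± 1.08, adjusted p = 0.0591) or PdgfrbGFP (4.52 ± 1.41, adjusted p = 0.106), with only cells of under 250000 counts (2.98 ± 1.31, adjusted p = 0.275) or by limma on means over cells (1.82 ± 0.677, adjusted p = 0.146). Middle cells differed from base cells by 6.12 ± 1.84, which edgeR did not call (adjusted p = 0.217). That difference was called by DESeq2 (6.18, adjusted p = 0.00138), by limma (4.19, adjusted p = 0.0110), and by edgeR with plates as replicates (6.57, adjusted p = 0.00712) or with only cells of 250000 counts or more (6.19, adjusted p = 0.0495). *Col6a5* and *Col6a6* share 322 of their 50-base stretches, 3.42% of those of *Col6a5*.

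*Col6a6* was at the edge of detection at this depth. A count was found in 46 of 1307 fibroblasts (3.52%), against 4 of 339 mural cells. A total of 4 fibroblasts reached a level of 50, with a highest level of 387. The line levels were 0 to 3.17 in base-to-middle cells and 0.164 to 1.39 in base cells, and 0 of 45 middle-to-apex cells had a count, which allows a share of up to 7.87% of cells with a count. Apex cells held 1 count in all. edgeR called *Col6a6* in no comparison, and DESeq2 called it lower in the apex than in clusters 1, 5 and 7 (adjusted p = 0.0191), a call that rests on that 1 count.

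Collagens XII and XIV ran in nearly opposite order along the fibroblast clusters. *Col14a1* levels were 1104, 1347 and 1110 in base cells of Acta2GFP, PdgfraGFP and PdgfrbGFP (1187 ± 139), 501 to 803 in base-to-middle cells (689 ± 136, n = 4) and 276, 317 and 247 in middle cells (280 ± 35.5). No line of one cluster overlapped the next. The levels were 13.6 and 5.27 in middle-to-apex cells, and 4.03, 2.30 and 44.0 in apex cells, which overlapped. *Col12a1* ran the other way, with 31.1, 9.12 and 49.4 in base cells (29.9 ± 20.2), 24.6 to 59.7 in base-to-middle cells (40.6 ± 15.5), and 425, 400 and 260 in middle cells (362 ± 89.2). It stood at 490 and 522 in middle-to-apex cells, above all middle lines, and fell back to 160, 201 and 131 in apex cells (164 ± 35.0). Over the 15 fibroblast sums the genes correlated with r = −0.679 and rho = −0.786, a description over sums that share lines.

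Apex cells held less *Col14a1* than clusters 1, 5 and 7 (fold −5.02 ± 1.10, adjusted p = 0.00700), the 1 collagen lower in the apex. Leaving out Acta2GFP or PdgfraGFP ended that call (−4.63 and −4.42, adjusted p = 0.129 and 0.0598). The 2 PdgfrbGFP plates with at least 10 apex cells stood at 21.6 and 60.7 (10 and 17 of its 30 apex cells), while such plates of the other lines were at 1.89 to 2.78. In apex and middle-to-apex cells together, a cell's *Col14a1* level followed that of cells in the same row or column of its plate with a mean rho of 0.365 (0.0669 to 0.539 over 5 plates, 157 cells), and its part in these levels was not tested. *Col12a1* was higher in middle than in base cells by 3.42 ± 0.744 (adjusted p = 0.0403), which was lost without Acta2GFP (3.33 ± 1.07, adjusted p = 0.714) or PdgfraGFP (2.98 ± 0.865, adjusted p = 0.342). It was also lost in both depth classes, at 3.22 ± 0.797 in cells of under 250000 counts and 3.30 ± 0.693 in deeper cells (adjusted p = 0.145 and 0.0533). *Col14a1* differed in that comparison by −2.08 ± 1.01 (adjusted p = 0.558).

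Shares of single cells at a level of 50 for *Col14a1* and *Col12a1* were pooled over lines and plates, and their differences between clusters were not tested. Plates of a cluster could differ: a *Col12a1* count was found in 42.1% of base cells on an Acta2GFP plate and 100% on a PdgfrbGFP plate. The pooled shares were close in base and base-to-middle cells. In base cells, 179 of 223 (80.3%) reached a level of 50 for *Col14a1* alone and 44 (19.7%) for both, and in base-to-middle cells 328 of 425 (77.2%) and 84 (19.8%). In middle cells, 287 of 483 (59.4%) reached it for both, 85 for *Col12a1* alone and 84 for *Col14a1* alone. In middle-to-apex cells, 35 of 45 (77.8%) reached it for *Col12a1* alone and 1 for both. In apex cells the count for *Col12a1* alone was 67 of 131 (51.1%) and 6 had both.

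**Figure D3:**
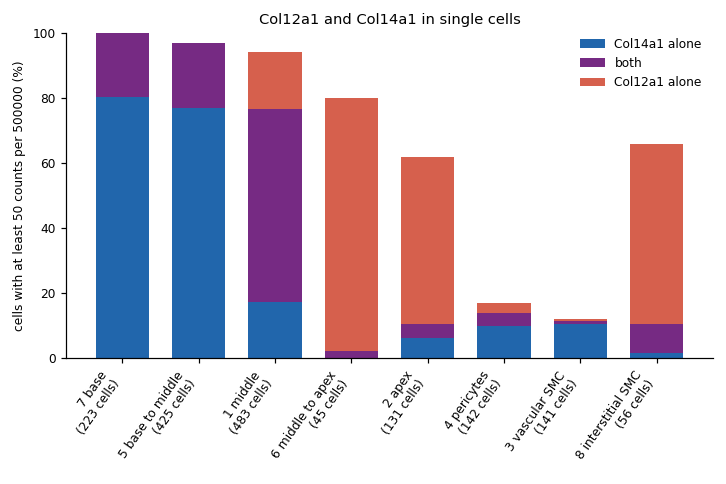
Share of cells (%) in each cluster with a level of at least 50 counts per 500000 for *Col14a1* alone, for both genes or for *Col12a1* alone. The share for *Col14a1* alone is 80.3% in base cells, and that for *Col12a1* alone is 77.8% in middle-to-apex cells.

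*Col14a1* also had the largest fold of the 4 collagens called between fibroblasts and mural cells, with levels of 403 to 603 in fibroblasts and 11.8 to 33.4 in mural cells (fold 4.13 ± 0.380, adjusted p = 0.000466). The mural level moved with plates. In Acta2GFP it was 48.2 in vascular SMC and 46.8 in interstitial SMC of 1 plate, where all 30 such cells had a count, and 1.91 and 2.09 on the other. A cell's *Col14a1* level also followed that of cells in the same row or column of its plate, with a mean rho of 0.358 (−0.0067 to 0.758 over 6 plates, 329 mural cells). Its part in the mural levels was not tested. *Col12a1* showed a mean rho of 0.0755 there. *Col12a1* in mural cells was led by interstitial SMC, at 178 against 4.98 ± 3.23 in vascular SMC (7.02, 1.26 and 6.66 by line), a fold of 5.39 ± 0.905 (adjusted p = 0.00289) that rests on 1 interstitial sum, whose spread is taken from the other clusters. Pericytes had 29.7 and 8.17, and 36 of 56 interstitial SMC (64.3%) reached a level of 50, against 2 of 141 vascular SMC. Fibroblasts against mural cells did not pass for *Col12a1* (2.13 ± 0.786, adjusted p = 0.154), and did without Acta2GFP, the line that supplies the interstitial SMC (4.11 ± 0.522, adjusted p = 0.00938), and with plates as replicates (1.84 ± 0.559, adjusted p = 0.0298).

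Interstitial SMC gave 1 sum, of 52 Acta2GFP cells, which the fit takes to vary like the other clusters, so its tests hold no replicate spread of interstitial SMC. Within Acta2GFP, where elastase digestion was shared, levels in interstitial and vascular SMC were 891 and 80.8 for *Col6a1*, 922 and 99.9 for *Col6a2*, 221 and 59.4 for *Col6a3*, and 178 and 7.02 for *Col12a1*. Against the 3 vascular sums, *Col6a1*, *Col6a2* and *Col6a3* were higher by 3.46 ± 0.423, 3.33 ± 0.387 and 2.51 ± 0.336 (adjusted p = 0.000141, 9.69e-05 and 0.000355), and *Col6a4* and *Col12a1* with them, 5 of the 9 collagens against 0.879% of genes higher and 0.129% lower. *Col6a3* was lost with only cells of under 250000 counts (1.30 ± 0.522, adjusted p = 0.394). Median depth was 118252 counts in interstitial and 359677 in vascular SMC. The vascular *Col6a1* level was 98.0 in cells of under 250000 counts and 29.0 in deeper ones. In the 48 interstitial SMC of under 250000 counts it was 868. The part of depth in the folds was not tested. Interstitial SMC summed to 330 for the fibroblast markers and vascular SMC to 22.8 to 284. Further lists that did not overlap included the apex fibroblast markers, at 148 in interstitial and 46.8 to 54.9 in vascular SMC, and the endothelial markers, at 13.7 and 6.13 to 9.13. The SMC markers (*Myh11*, *Acta2* and *Cnn1*) were at 7990 and 4101 to 6687, and glia markers at 3.92 and 0.614 to 1.40. Lower in interstitial SMC were the pericyte markers, at 232 and 734 to 1148, and the mural markers, at 1866 and 4005 to 4428. The *Kit* and *Ano1* sum was lower too, at 23.6 and 245 to 364. Sums of immune and of epithelial markers in interstitial SMC also lay below every line of vascular SMC. The interstitial SMC markers stood at 1809 and 0.887 to 8.35. The part of these markers in the difference was not tested.

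*Col16a1*, of collagen XVI, found with both fibrils and microfibrils, was called in no comparison by edgeR with all cells and all lines as replicates. Its level was 43.0, 169 and 143 in apex cells of Acta2GFP, PdgfraGFP and PdgfrbGFP (118 ± 66.6), 54.1 ± 14.1 in base, 53.6 ± 34.9 in base-to-middle and 62.8 ± 30.4 in middle cells, all of which overlapped. Vascular SMC were lowest, at 11.5, 9.46 and 1.21, against 37.2 and 53.2 in pericytes, without overlap, but the test did not pass (2.32 ± 0.786, adjusted p = 0.223). DESeq2 called it (2.46, adjusted p = 0.0414), as did edgeR with plates as replicates (2.47, adjusted p = 0.0313) and with only cells of under 250000 counts (4.41, adjusted p = 0.0376). In apex against clusters 1, 5 and 7 the fold was 1.34 ± 0.529 (adjusted p = 0.171). It was called when Cspg4dsRED was left out (1.21 ± 0.319, adjusted p = 0.0291) and with plates as replicates (1.36 ± 0.421, adjusted p = 0.0304). The apex level was 58.9 in cells of under 250000 counts and 170 in deeper ones. The same 2 levels were 46.9 and 66.0 in middle, 67.9 and 76.4 in base-to-middle and 46.6 and 56.8 in base cells. Interstitial against vascular SMC gave 2.59 ± 0.907 (adjusted p = 0.244), and 2.94 ± 0.720 with plates (adjusted p = 0.0116).

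The remaining values were of members that edgeR did not call with all cells and all lines as replicates. In fibroblasts against mural cells they were 3.11 ± 1.57 for *Col6a5* (adjusted p = 0.317), 4.60 ± 1.85 for *Col6a6*, with a count in 4 mural cells (adjusted p = 0.193), and 1.05 ± 0.703 for *Col16a1* (adjusted p = 0.480). That of *Col6a5* was called with plates as replicates (3.58, adjusted p = 0.0155) and without Cspg4dsRED (2.96, adjusted p = 0.0382). In the apex against clusters 1, 5 and 7 *Col12a1* differed by 1.27 ± 0.512 (adjusted p = 0.184), and *Col6a6* had an adjusted p of 0.0949. Between middle and base cells the adjusted p was 0.476 for *Col6a4* (2.87 ± 1.21), 0.561 for *Col6a6* (−3.40 ± 1.65) and 1 for *Col16a1* (0.05 ± 0.701). Apex and middle-to-apex cells differed by 1.19 ± 0.383 for *Col6a1* (adjusted p = 0.146), 1.14 ± 0.350 for *Col6a2* (0.128), −1.28 ± 0.747 for *Col12a1* (0.467), 1.03 ± 1.15 for *Col14a1* (0.783), 1.27 ± 1.72 for *Col6a5* (0.845) and 0.74 ± 0.802 for *Col16a1* (0.770). *Col6a6* is left without a fold there, since apex cells held 1 count and middle-to-apex cells 0. Pericytes differed from vascular SMC by 4.57 ± 1.49 for *Col6a4* (adjusted p = 0.201), which DESeq2 called (4.39, adjusted p = 0.0423), as did plates as replicates (6.12, adjusted p = 0.0280). The other values of that contrast were 1.66 ± 1.67 for *Col6a5* (adjusted p = 0.797), 1.38 ± 0.758 for *Col12a1* (0.470) and −0.21 ± 1.09 for *Col14a1* (1). Interstitial and vascular SMC differed by 2.32 ± 1.97 for *Col6a5* (adjusted p = 0.823) and −1.30 for *Col14a1*, which is less than its SE (0.911). *Col6a6*, with a count in 4 mural cells in all, is given no fold between mural clusters.

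**Figure D4:**
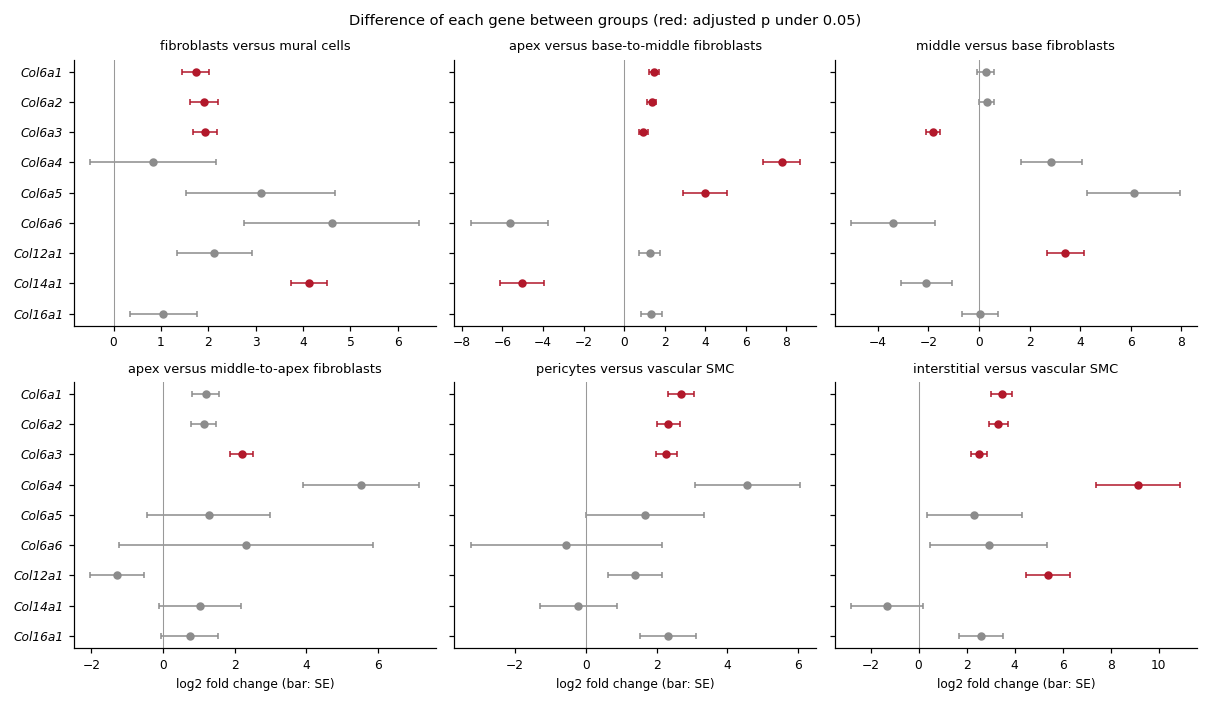
Log2 fold change of the 9 collagens in the 6 cluster comparisons, as points with a bar of 1 SE, red where the adjusted p is under 0.05. In apex cells against clusters 1, 5 and 7 (base, base-to-middle and middle cells), *Col6a4* is at 7.76 and *Col14a1* at −5.02.

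The genes that make, modify or bind collagens gave the setting, counted from 3 lists. Collagen VI-like and other FACIT genes (8 listed) stayed low, with a highest cluster mean of 12.5 for *Col28a1*: in fibroblasts against mural cells 5 were tested and 1, *Col19a1*, was lower, with levels of 0.00751 in fibroblasts and 4.27 in mural cells. In the other 5 cluster comparisons 6 were tested and 0 called, where 0.120% to 4.42% of all genes were called in a direction. Of 21 collagen biosynthesis genes, 6 were higher in fibroblasts, among them *P4ha3*, a prolyl 4-hydroxylase subunit (5.39), *Colgalt2*, a collagen galactosyltransferase (5.05), and *Plod2*, a lysyl hydroxylase (2.78), and *P3h2*, a prolyl 3-hydroxylase, was lower (−3.72), against 3.21% of all genes higher and 3.36% lower. The list's median was 0.98 against −0.03 for all genes. In the apex against clusters 1, 5 and 7, *P3h2* was higher (5.55 ± 0.758, adjusted p = 7.66e-05) and *P4ha3* lower (−5.48), against 4.42% and 1.86% of all genes, and the median was −0.0041 against −0.09. *P3h2* levels were 1.00 in base, 16.2 in middle and 92.4 in apex cells, and 148 to 173 in the mural clusters. *Creb3l1*, a transcription factor of secretory cells, was the 1 of the 21 called in interstitial against vascular SMC (6.24 ± 0.998, adjusted p = 0.00197), where 0.879% of all genes were higher and 0.129% lower, and 0 were called in the other 3 cluster comparisons, where 0.120% to 0.695% of all genes were called in a direction. The *Creb3l1* call rests on the 1 interstitial sum.

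Of 14 binding partners and receptors, 5 were higher in fibroblasts than in mural cells, among them *Tnxb* of tenascin-X (3.46), *Fn1* of fibronectin (2.84) and *Dcn* of the proteoglycan decorin (2.74), and *Itga10* (−4.38) and *Itga1* (−3.42), collagen-binding integrin subunits, were lower (list median 1.65 against −0.03), beside 3.21% of all genes higher and 3.36% lower. In the apex, *Itga1* was higher (2.02), and *Tnxb* (−3.74), *Matn2* (−3.31) and *Dcn* (−2.93), whose products are known to bind collagens, were lower, beside 4.42% and 1.86% of all genes. Of these 14, 0 were called between middle and base cells (0.368% and 0.120% of all genes), and 1, *Matn2* (2.39), between pericytes and vascular SMC (0.621% and 0.198%). Interstitial SMC held more *Itga11* (4.69) and *Antxr1* (2.45) than vascular SMC (0.879% and 0.129%).

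Within clusters, reporter lines were compared over plates. In the middle cluster, *Col12a1* was 414 and 437 on the Acta2GFP plates, 310 and 452 on the PdgfraGFP plates and 288, 267, 102 and 190 on the PdgfrbGFP plates. With the filter on low counts and all plates, edgeR called 0% of genes in any of the 3 comparisons in either direction, with 435, 1060 and 707 genes at an unadjusted p under 0.05 (15700, 15700 and 17829 tested). DESeq2 called 2 higher and 21 lower for Acta2GFP against PdgfrbGFP, 32 and 383 for PdgfraGFP against PdgfrbGFP in the middle cluster, and 16 and 55 for Acta2GFP against PdgfrbGFP in base-to-middle cells, and limma 0. Without the filter, edgeR called 0 higher and 5 lower, 1 and 10, and 0 and 2 genes in these comparisons, none of them a collagen of the 9, and 5 lower for PdgfraGFP against PdgfrbGFP without 1 PdgfraGFP plate. *Col6a5* in the middle cluster was 8.81 and 11.9 on the PdgfraGFP plates and 33.1 to 69.3 on the PdgfrbGFP plates (fold −2.77 ± 0.774, adjusted p = 0.708 by edgeR and 0.0117 by DESeq2).

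The genes outside the 9 collagens whose levels were most like those of each collagen over the 21 sums, by Pearson correlation of log2(counts per 500000 + 1), were as follows for all members but *Col6a6*, whose levels were too low. For *Col6a1* they were *Lamb1* (0.947), *Mmp2* (0.933) and *Ptges* (0.919), and the same 3 for *Col6a2*. For *Col6a3* they were *Nid1* (0.963), *Cotl1* (0.901) and *Pdlim4* (0.880), for *Col6a4* *Ptprr* (0.941), *Nrg1* (0.934) and *Rab38* (0.923), and for *Col12a1* *Srpx2* (0.916), *Tenm3* (0.905) and *Ghr* (0.894). For *Col6a5* they were *Clec14a* (0.909), *Lgmn* (0.880) and *Milr1* (0.854), and for *Col16a1* *Acvrl1* (0.921), *Sgsm3* (0.891) and *Tubb2a* (0.861). For *Col14a1* the list was led by *Gm16083* (0.948) and *Gm16897* (0.943). A Spearman measure or a pseudocount of 10 changed at least 1 gene in 15 of the 16 sets.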

How the data were processed

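Single-cell SmartSeq2 counts of 1646 colon cells were analysed. The authors mapped 50-base single reads to GRCm38, applied a samtools step that the methods call doublet removal, ran featureCounts, and deposited the raw counts, whole numbers for each gene in each cell. The labels' processing notes name Bowtie, Bowtie2, Subread, bcl2fastq and featureCounts. Whether counting used strand is not given in the sources used here, so antisense overlaps leave counts uncertain. The 92 spike-in rows, 1.36% of all counts, were left out. Symbols and positions came from GENCODE vM21 (1-based), which named 46005 of the 46517 genes. No 2 cells had identical counts. No doublet caller was run here.

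For each class and reporter line with at least 10 cells, raw counts were added up (2202988 to 85478239 counts per cluster sum), scaled by TMM, reduced by filterByExpr to genes with enough counts, and tested by edgeR 4.0.16 (quasi-likelihood, Benjamini-Hochberg, threshold 0.05) in R 4.3.3. All clusters shared 1 fit. Line comparisons used plates. DESeq2 1.42.0, limma 3.58.1, no filter, a line block, at least 3 cells, plates and leaving out lines were alternatives, and cells split at 250000 counts were added after seeing the data. The tests were also run on simulated counts, whose means and spread were taken from the fits of these data. The study tested cells as replicates, which was not done here. Python 3.11.15 and pandas 2.3.3 made the levels, and shares of cells with a count after thinning to 50000 counts left out 11 shallower cells.

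The members and lists were chosen with earlier results of these data known. All 9 members were tested in every cluster comparison and their values given there, except folds of *Col6a6* with 3 or fewer counts in a group, which are drawn in the plot of folds but not printed, and of those that results turned on in the line comparisons, and at most 3 called genes with the largest fold per list and direction. For likeness, the 3 genes outside the 9 collagens with the highest correlation were named for each member with a cluster level of at least 20, which leaves out *Col6a6*, except 1 gene that is not reported here. Sums of a line share plates, so a fit with the line as a block was made as an alternative, and the p-values given are those without it. Their deviations from the group means correlated at 0.0758 to 0.136 for fibroblasts and mural cells, 0.0186 to 0.143 for cluster 2 against 1, 5, 6 or 7, 0.0819 to 0.139 for cluster 1 against 7, and 0.148 and 0.151 for pericytes and vascular SMC.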

Additional observations from a re-analysis of the deposited data

Results flagged for a closer look

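Of 36 groups of 4 lines or plates examined for a single value far from the rest, 3 had one, where chance gives about 5%. The *Col6a4* level in fibroblasts of PdgfraGFP was 56.0, far above the other lines, of which the nearest was at 13.4. PdgfraGFP had 55 of its 225 fibroblasts in the apex cluster, against 44 of 483 in Acta2GFP, 30 of 571 in PdgfrbGFP and 2 of 28 in Cspg4dsRED, and the part of these shares in the level was not tested. The *Col6a3* level in base-to-middle cells was 442 on 1 PdgfrbGFP plate (11 cells), and the nearest of the other plates was at 680. The *Col14a1* level in middle cells was 218 on another PdgfrbGFP plate (111 cells), and the nearest was at 268.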

How the results depend on the processing

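With the reporter line as a replicate block, which holds the pairing of sums from a line, 4, 6, 2, 1, 3 and 5 collagens were called in the 6 cluster comparisons, the same numbers as without it, while for fibroblasts against mural cells the calls over all genes went from 615 higher and 644 lower to 261 and 329. No called result changed sign under the alternatives run. Leaving out 1 line at a time gave 1 to 7 collagens called in apex against clusters 1, 5 and 7 (1 without Acta2GFP), 0 to 2 in middle against base cells and 0 to 2 in apex against middle-to-apex cells. The calls over all genes moved with them: in apex against clusters 1, 5 and 7 they were 346 higher and 77 lower without Acta2GFP and 1045 and 587 without Cspg4dsRED (7 collagens), in middle against base cells 11 and 4 without Acta2GFP, and in apex against middle-to-apex cells 5 and 0 without it. With only cells of under 250000 counts, middle against base and apex against middle-to-apex each called 0. The latter called 2 by DESeq2 and by limma (*Col6a4* joining *Col6a3*) and 0 with sums of at least 3 cells. Pericytes against vascular SMC called 5 by DESeq2 and with plates as replicates (*Col6a4* and *Col16a1* besides the 3 chains), and PdgfraGFP against PdgfrbGFP in the middle cluster called 1 by DESeq2. The cause was not tested.

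Over all genes, DESeq2 called 1568 higher and 1365 lower in fibroblasts against mural cells, 946 and 1114 in apex against clusters 1, 5 and 7 (961 and 404 by edgeR), 435 and 187 in middle against base (80 and 26), 1396 and 555 in apex against middle-to-apex (151 and 57), 643 and 568 in pericytes against vascular SMC (135 and 43) and 517 and 600 in interstitial against vascular SMC (191 and 28). Of the member fold changes recomputed, 878 kept their side of the threshold, 21 passed it newly and 28 lost it. Lines are few, mice are not named, and *Col6a6* rests on few counts.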
